A study of Mus musculus with 6 samples.

Results

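Gm10925, Gm29216, Gm28437 and Gm28661 are 4 unprocessed pseudogenes on mouse chromosome 1, and they were the 4 genes with the highest level per length in hippocampal RNAseq libraries whose mitochondrially encoded genes held no counts. They were chosen for that level from the 54838 genes of the count table by their GENCODE M21 symbols, so their levels are given here as a description. One library was made from the hippocampus of each of 3 wild-type females and 3 Tg(ORAI1)Ibd females, all aged 7 months. Tg(ORAI1)Ibd mice are of the FVB/NJ line and carry a human ORAI1 coding sequence in a modified mouse Thy-1.2 expression cassette, which drives expression in neurons. The RNA was extracted as total RNA and the labels give polyA RNA as the molecule sequenced.

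Library totals lay between 37414241 and 52497799 counts. Counts on Orai1 went the way of the genotype labels, with 7.15 to 8.08 counts relative to the scaled library total (CPM) in the wild-type and 313.2 to 330.9 CPM in the Tg(ORAI1)Ibd libraries, as did those on Thy1, with 620.6 to 674.9 CPM and 3570 to 4366 CPM. All 10 markers of hippocampal neurons were measured in every library. The 15 markers of the choroid plexus, an epithelium of the brain ventricles that borders the hippocampus, summed to 3889 to 6023 CPM in the wild-type and 560 to 865 CPM in the Tg(ORAI1)Ibd libraries, and none of the 15 was at 0 in all libraries.

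Mitochondria keep a small circular genome of their own, which encodes subunits of the respiratory chain and of ATP synthase together with the rRNAs and tRNAs needed to make them. Its mRNAs are cut from long transcripts and receive poly(A) tails, and they are abundant in tissues with a high demand for ATP such as the brain. Copies of mitochondrial DNA have also been inserted into the chromosomes in the course of evolution. Such nuclear mitochondrial sequences are annotated as pseudogenes where they resemble a mitochondrial gene, and a short read from a recent copy can be identical to a read from the mitochondrial transcript.

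Each of the 4 pseudogenes resembled 1 mitochondrial mRNA. Gm28661 (ENSMUSG00000102070, 681 bases) was identical over its whole length to mt-Co2, which encodes a catalytic subunit of cytochrome c oxidase. Gm10925 (ENSMUSG00000100862, 678 bases) was identical throughout to mt-Atp6, which encodes a membrane subunit of ATP synthase. Gm28437 (ENSMUSG00000101111, 783 bases) was identical throughout to mt-Co3, which encodes a further core subunit of cytochrome c oxidase. Gm29216 (ENSMUSG00000101249, 492 bases) matched the last 483 bases of mt-Co1, which encodes the largest subunit of the same enzyme, with 482 identical bases. Together 2624 of their 2634 bases lay within these matches and were identical.

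The first 76 bases, the read length given in the labels, are shown for the 3 members without any difference. In the reference sequences no read of that length within them could be told from a mitochondrial read. Whether the mice of these libraries carried the same sequences was not tested. Lower case stands for bases identical to the mitochondrial transcript, which here is every base. On GRCm38 these windows lie on the minus strand, at chr1:24615490-24615565 for Gm28661, chr1:24614576-24614651 for Gm10925 and chr1:24613896-24613971 for Gm28437.
Gm28661: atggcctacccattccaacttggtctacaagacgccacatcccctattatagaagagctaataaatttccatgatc
Gm10925: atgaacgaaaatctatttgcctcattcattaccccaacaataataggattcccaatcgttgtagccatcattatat
Gm28437: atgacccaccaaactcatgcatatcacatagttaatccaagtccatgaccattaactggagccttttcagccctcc

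Gm29216 was the member with a base by which it could be told apart, at its 5′ end. Its first 120 bases (chr1:24616078-24616197, minus strand) are set under mt-Co1 (bases 1054 to 1173 of its transcript) and above the corresponding bases of Gm13340 (chr2:22588475-22588594, minus strand), the mitochondrial-like pseudogene with the next highest level in these libraries. Capitals mark bases that differ from mt-Co1. The first 9 bases of Gm29216 lay outside its match. Within the match it carried the substitution A1066T, counted from 1 at the 5′ end of the mt-Co1 transcript, and the other 482 bases were identical, 479 of them in 1 run after the substitution.
mt-Co1: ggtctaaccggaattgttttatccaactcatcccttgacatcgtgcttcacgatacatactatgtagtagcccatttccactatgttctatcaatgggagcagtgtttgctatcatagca
Gm29216: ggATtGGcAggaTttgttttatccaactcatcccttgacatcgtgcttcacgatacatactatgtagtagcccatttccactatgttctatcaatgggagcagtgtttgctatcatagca
Gm13340: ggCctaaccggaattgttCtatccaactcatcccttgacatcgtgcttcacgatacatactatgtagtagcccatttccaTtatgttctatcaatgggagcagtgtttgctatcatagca

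Counted over all windows of 76 bases, 404 of the 417 windows of Gm29216 (96.9%) and all 606, 603 and 708 windows of Gm28661, Gm10925 and Gm28437 occurred unchanged in a mitochondrial transcript. Some windows were also shared within the nucleus. Of the windows of Gm28661, 136 occurred in another annotated nuclear transcript, as did 38 of those of Gm29216, whereas none of those of Gm10925 or Gm28437 did.

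The 4 members lie side by side in 1 stretch of 4663 bases that holds 7 pseudogenes, all unprocessed and on the minus strand (chr1:24611535-24616197). Along the direction of the pseudogenes the order is Gm29216 (chr1:24615706-24616197), Gm28661 (chr1:24614885-24615565), Gm10925 (chr1:24613974-24614651), Gm28437 (chr1:24613189-24613971), Gm28438 (chr1:24612775-24613119), Gm10222 (chr1:24612407-24612700) and Gm28439 (chr1:24611535-24612410). This is the order of mt-Co1, mt-Co2, mt-Atp6, mt-Co3, mt-Nd3, mt-Nd4l and mt-Nd4 in the mitochondrial genome, where the matches run from position 6390 to position 11042. The distances were kept as well. From Gm29216 to Gm28438 the chromosomal and mitochondrial positions ran in step to the base, and Gm10222 and Gm28439 were offset by 1 base.

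The levels along this stretch fell into 3 ranges. Values are fragments per kilobase of exon and per unit of library total (FPKM), computed from the counts, the deposited exonic lengths and the library totals, so that genes of different length can be compared. The 4 members had mean FPKM between 11685 and 16403 over the 6 libraries. Gm28438, which starts 69 bases after the end of Gm28437 and resembles mt-Nd3, a subunit of complex I of the respiratory chain, had 143.7, 145.7 and 222.1 FPKM in the wild-type and 83.7, 205.7 and 215.6 FPKM in the Tg(ORAI1)Ibd libraries. Its mean of 169.4 FPKM was that of the next unprocessed pseudogene on chromosome 1 after the members, out of 95, and 69.0-fold below that of Gm28437.

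Gm10222 and Gm28439, at the far end of the stretch, held 4 to 17 and 6 to 15 counts per library, against 266424 to 572158 for the members. Their means were 0.651 and 0.298 FPKM. Both were identical to their mitochondrial counterparts, mt-Nd4l over 294 of 294 bases and mt-Nd4 over 876 of 876 bases, which encode membrane subunits of complex I. Gm28437 and Gm28439, both without a difference from the mitochondrial sequence, thus differed 39224-fold in mean FPKM. The first 76 bases of the latter 2 and of Gm28438, with the corresponding bases of mt-Nd3, are shown because identity to the mitochondrial sequence did not separate them from the members. The capital in Gm28438 (substitution T3C, counted from the 5′ end of mt-Nd3) is its single difference. The windows lie at chr1:24612625-24612700, chr1:24612335-24612410 and chr1:24613044-24613119, all on the minus strand.
Gm10222: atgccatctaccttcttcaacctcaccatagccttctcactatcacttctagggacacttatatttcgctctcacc
Gm28439: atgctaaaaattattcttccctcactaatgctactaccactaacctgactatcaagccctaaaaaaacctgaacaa
Gm28438: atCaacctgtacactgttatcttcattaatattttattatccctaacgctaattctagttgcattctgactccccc
mt-Nd3: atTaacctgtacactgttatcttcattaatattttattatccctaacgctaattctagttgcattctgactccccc

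**Figure D1:**
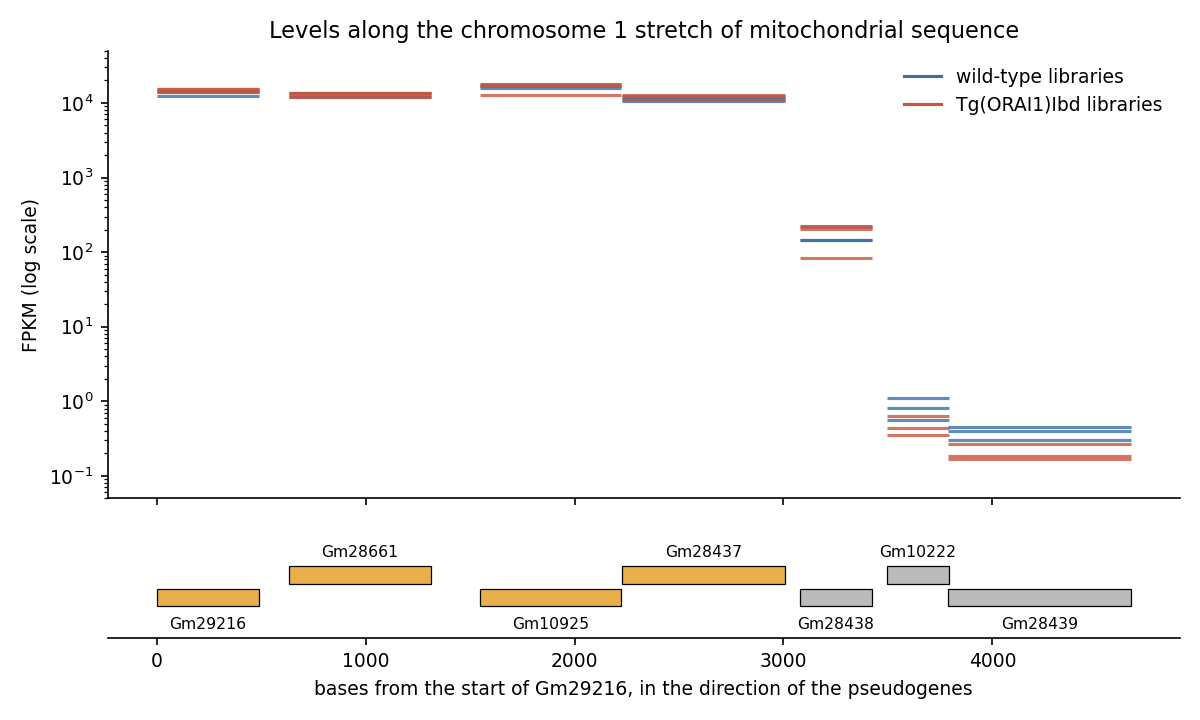
FPKM of the 7 pseudogenes in each of the 6 libraries (log axis) against the distance in bases from the start of Gm29216, with the genes drawn to scale below (members in yellow). The members lie between 10559 and 17993 FPKM, Gm28438 between 83.7 and 222.1 FPKM and the last pair at 1.10 FPKM or less.

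The mitochondrially encoded genes themselves were in the count table, 37 of them, and all 37 had 0 counts in every library. Among them were mt-Co1, mt-Co2, mt-Co3, mt-Atp6, mt-Nd3, mt-Nd4l and mt-Nd4, the counterparts of the stretch. The deposited table names their chromosome chrMT, whereas GENCODE M21 uses chrM, and whether the chromosome names of the alignment and of the annotation differed was not tested. Counts were kept on primary alignments with a mapping quality of at least 3 and were assigned by gene, and how many reads that fitted a mitochondrial transcript and a pseudogene equally well passed these settings is not known from the counts. Mitochondrial and nuclear reads cannot be told apart in the counts of the 4 members.

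Besides the members, 24 genes outside the mitochondrial genome matched a mitochondrial transcript over at least 100 bases at 80% identity or more. Of these, 14 had a count in any library and 5 had at least 10 counts in every library. By level the first was Gm13340 on chromosome 2, which resembles all of mt-Co1 with 97.6% identity and had 332.9 to 377.1 FPKM, 40.8-fold less in the mean than Gm29216. Of its 1470 windows 213 (14.5%) occurred unchanged in a mitochondrial transcript. Gm28438 came next, followed by Gm13339 (mt-Nd2, 96.7% identity), which lies beside Gm13340 and had a mean of 54.7 FPKM, and by Gm13341 (mt-Co2, 95.9%) and Gm11407 (mt-Nd5, 92.3%) with means of 0.695 and 0.683 FPKM. Gm13341 shares the chromosome 2 stretch with Gm13340, and thus within both stretches neighbours of high identity differed widely in level.

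**Figure D2:**
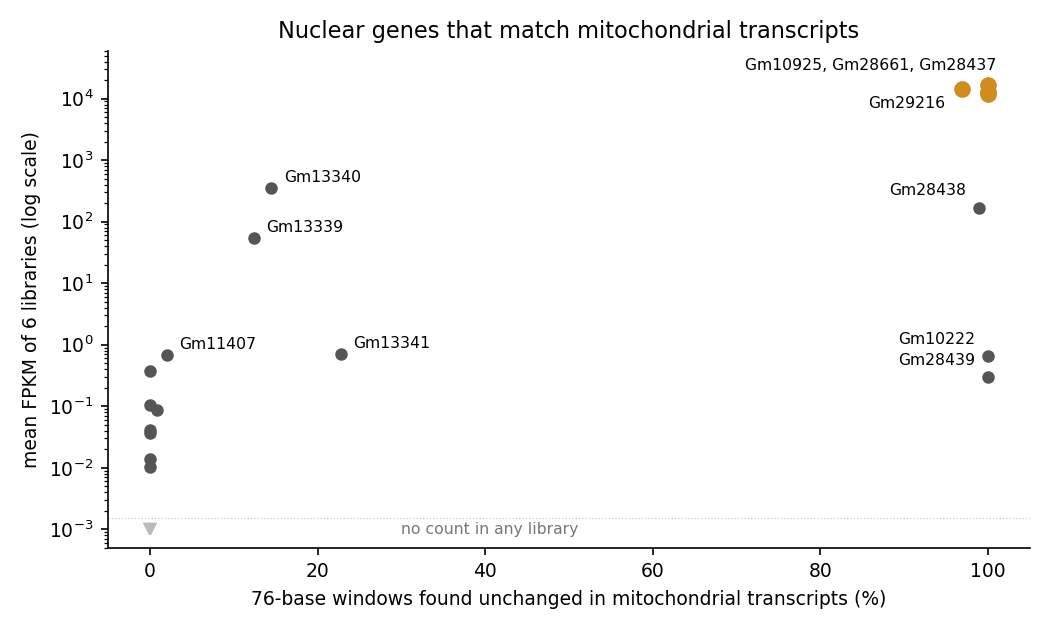
Mean FPKM over the 6 libraries (log axis) against the share of 76-base windows found unchanged in mitochondrial transcripts, for the 28 nuclear genes with a match. Members are in yellow, and grey triangles at the bottom stand for the 10 genes without a count. Genes with shares of 96.9% to 100% run from 0.298 to 16403 FPKM.

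The members took the first 4 places in FPKM in every library. The highest was Gm10925, with 16075, 17101 and 17993 FPKM in the wild-type and 12953, 17437 and 16857 FPKM in the Tg(ORAI1)Ibd libraries. It had the most counts of all genes in each of the 6 libraries. The Tg(ORAI1)Ibd library 1 was its lowest value by a wide margin, and the other 5 lay close together.

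Gm29216 followed with 12219, 13830 and 14360 FPKM in the wild-type and 14147, 15324 and 15503 FPKM in the Tg(ORAI1)Ibd libraries. Gm28661 had 12046, 12628 and 13582 FPKM and 11920, 13504 and 13512 FPKM, respectively. Gm28437 was the lowest, with 10559, 11450 and 12125 FPKM in the wild-type and 10906, 12572 and 12495 FPKM in the Tg(ORAI1)Ibd libraries. In each of the 4 the 2 genotypes overlapped.

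Over the 6 libraries the means ± SD were 16403 ± 1806 FPKM for Gm10925, 14230 ± 1187 for Gm29216, 12865 ± 770 for Gm28661 and 11685 ± 845 for Gm28437 (n = 6 each). The ranges of mean ± SD of neighbours in this order overlapped. Within a library the order was steadier, and it held in 5 of the 6. The exception was Tg(ORAI1)Ibd library 1, in which Gm29216 exceeded Gm10925. For comparison, the next gene of the whole table was Fth1, the heavy chain of the iron store ferritin, with a mean of 1942 FPKM.

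**Figure D3:**
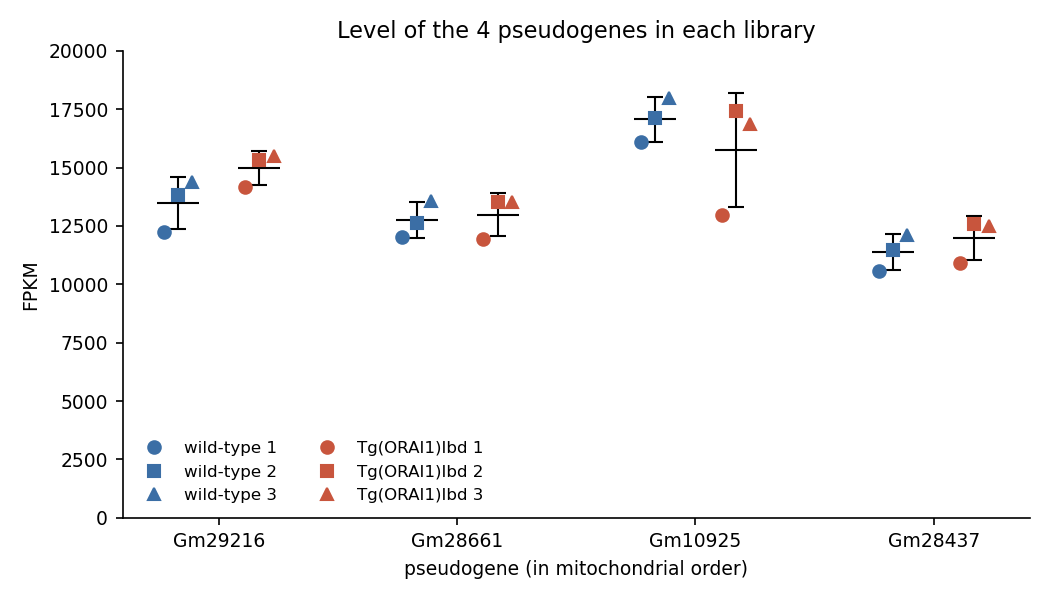
FPKM of the 4 pseudogenes in each library, in the order of the mitochondrial genome. Symbols are single mice, horizontal bars are group means and whiskers are ± SD (n = 3). The genotypes overlap for each pseudogene, and the lowest Gm10925 value is that of Tg(ORAI1)Ibd 1.

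Together the members took 3.34%, 3.60% and 3.80% of all counts in wild-type libraries 1, 2 and 3 and 3.24%, 3.84% and 3.80% in the corresponding Tg(ORAI1)Ibd libraries. With 1423290 to 1752437 counts behind each share, the Wilson 95% interval reached at most 0.0061 percentage points to either side and covers counting error only. The share was highest in wild-type 3, Tg(ORAI1)Ibd 2 and Tg(ORAI1)Ibd 3, which are also the 3 libraries with the fewest counts, and which come from both genotypes.

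The comparison of the genotypes asks whether overexpression of ORAI1 in neurons went with another level of these transcripts. No member was called by edgeR's quasi-likelihood test at an adjusted p of 0.05, against 7.10% of the 19087 genes tested, and DESeq2's Wald test and limma-voom called none of the 4 either. For none of the 4 did the CPM of the groups separate, against 34.9% of all genes tested. None had an unadjusted p under 0.05 in the edgeR fit, against 27.8% of all genes. Gm29216 did have one by DESeq2's Wald test, as did 23.7% of all genes, and by edgeR without the filter on low counts (17.3% of genes) and without Tg(ORAI1)Ibd mouse 1 (28.0% of genes). With a trend on transcript GC content removed, 3 of the 4 did, against 20.8% of all genes, and again none was called.

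In CPM, with library totals scaled by TMM, Gm10925 stood at 10924, 11575 and 12145 in the wild-type and 8849, 11795 and 11413 in the Tg(ORAI1)Ibd libraries. The log2 fold change (Tg(ORAI1)Ibd minus wild-type) was -0.11 ± 0.12 (SE, n = 3 per genotype), with a 95% interval from -0.39 to 0.17 and an adjusted p of 0.591 (edgeR). Without Tg(ORAI1)Ibd mouse 1 it was 0.0073 ± 0.070 (SE), and with all mice but the GC trend removed it was 0.16. The sign thus depended on this library and on the adjustment.

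In the edgeR fit to all libraries with no trend removed, Gm29216 had the largest difference of the members. It stood at 6026, 6793 and 7034 CPM in the wild-type and 7013, 7522 and 7617 CPM in the Tg(ORAI1)Ibd libraries. Only wild-type 3 and Tg(ORAI1)Ibd 1 overlapped. Its log2 fold change was 0.16 ± 0.084 (SE, n = 3), with an interval from -0.037 to 0.35 and an adjusted p of 0.262 in the edgeR fit.

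For Gm28437, CPM were 8287, 8950 and 9452 in the wild-type and 8604, 9822 and 9770 in the Tg(ORAI1)Ibd libraries, which gave a log2 fold change of 0.079 ± 0.089 (SE, n = 3; interval -0.13 to 0.29, edgeR adjusted p = 0.609). Gm28661 stood at 8222, 8585 and 9208 CPM and at 8179, 9175 and 9189 CPM, and its log2 fold change was 0.029 ± 0.084 (SE, n = 3; interval -0.17 to 0.22, edgeR adjusted p = 0.858). For both the groups overlapped. The intervals leave differences of up to 0.39 on the log2 scale possible.

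The signs for Gm10925, Gm28437 and Gm28661 depended on how the libraries were adjusted or on 1 mouse, and that for Gm29216 was the same in every alternative run, while its size was not. When a trend of counts on transcript GC content was removed from each library, the log2 fold changes became 0.16 for Gm10925, 0.25 for Gm28661, 0.30 for Gm28437 and 0.35 for Gm29216, none of them called, with adjusted p between 0.082 and 0.31 by edgeR. The unadjusted p were 0.084, 0.014, 0.0075 and 0.0041 in the same order. When a trend on gene length was removed instead, those of Gm28437 and Gm28661 became -0.0015 and -0.060, that of Gm29216 shrank to 0.046 and that of Gm10925 became -0.20.

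**Figure D4:**
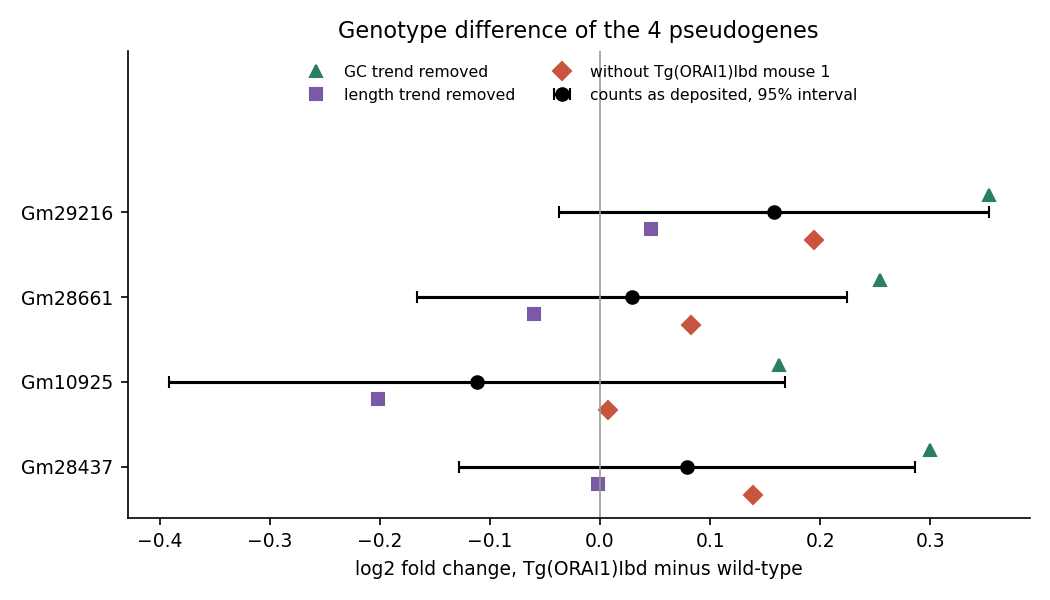
Log2 fold change of each pseudogene between the genotypes. Circles with whiskers are the edgeR estimates with 95% intervals (n = 3 per genotype), all of which include 0. Other symbols are estimates after removal of a GC or a length trend and without Tg(ORAI1)Ibd mouse 1, which place Gm10925 on either side of 0.

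GC content moved with the libraries in all genes. The tested genes were divided into 10 equal groups by transcript GC content, and the median log2 fold change between the genotypes rose from -0.20 in the group with the lowest to 0.13 in that with the highest GC content. All 4 members belonged to the lowest group, in which the median of log2 CPM departed from the mean of the 6 libraries by 0.13, 0.077 and 0.088 in wild-type 1, 2 and 3 and by -0.23, -0.041 and -0.019 in Tg(ORAI1)Ibd 1, 2 and 3. The members' fold changes were all above the median of that group. Among themselves the fold changes were ordered as their GC contents, which were 36.14% in Gm10925, 38.77% in Gm28661, 38.953% in Gm28437 and 40.24% in Gm29216. The part of GC content in these values was not tested beyond the removal of the trend.

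The proportions between the members can be compared without any scaling of the libraries, since each ratio is taken within 1 library. A trend of counts on GC content or gene length does not cancel in such a ratio, as the members differ in both. GC content was 36.14% in Gm10925 and 40.24% in Gm29216. The part of these trends in the ratios was not tested. These ratios were looked at after the values had been seen. Gm10925 over Gm29216, in FPKM, was 1.32, 1.24 and 1.25 in the wild-type and 0.916, 1.14 and 1.09 in the Tg(ORAI1)Ibd libraries. Each Tg(ORAI1)Ibd library was below each wild-type library, and this also held without mouse 1.

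Gm10925 over Gm28437 was 1.52, 1.49 and 1.48 in the wild-type and 1.19, 1.39 and 1.35 in the Tg(ORAI1)Ibd libraries. Gm29216 over Gm28661 was 1.01, 1.10 and 1.06 and then 1.19, 1.13 and 1.15. In all 6 pairs of members the groups did not overlap, although 3 ratios fix the other 3. The ratio of any other tested gene to Gm10925 did not overlap between the groups for 22.0% of genes, and for Gm28437, Gm28661 and Gm29216 this share was 23.3%, 23.6% and 32.0%. With 3 mice per genotype an exact permutation test cannot give a p below 0.1, and none was made of ratios chosen this way. Gm10925 made up 31.0% to 31.6% of the members' summed FPKM in the wild-type and 25.9% to 29.6% in the Tg(ORAI1)Ibd libraries, whereas Gm29216 made up 24.0% to 25.1% and 26.0% to 28.3%.

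Tg(ORAI1)Ibd library 1 was low in Gm10925 and in some of the related pseudogenes but not in others. In Gm28438 it had 29.1 CPM, while the other 5 libraries had 49.7 to 76.3 CPM. In Gm13339 it had 4.03 CPM against 21.9 to 41.1 CPM in the other 5. In Gm13340, by contrast, its 523.8 CPM lay within the range of the other libraries, 513.6 to 580.0 CPM, and in Gm29216 it was in the middle of the 6. GC content was 33.6% in Gm28438, 34.1% in Gm13339 and 39.7% in Gm13340. In Gm28439 (34.6%), library 1 had 0.150 CPM against 0.160 to 0.396 CPM in the other libraries. In Gm11407 (36.4%) it had 0.814 CPM against 0.374 to 0.969 CPM, and in Gm13341 (38.4%) 0.386 CPM against 0.308 to 0.602 CPM. Counts of these last genes were low. The part of GC content in these values was not tested.

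Of the 24 other mitochondrial-like genes, 6 were tested and none was called between the genotypes, against 7.10% of all genes tested. The log2 fold changes were -0.018 ± 0.34 (SE) for Gm28438, -0.0097 ± 0.67 for Gm13339 and -0.086 ± 0.052 for Gm13340. Gm28439, with 14, 15 and 15 counts in the wild-type and 7, 9 and 6 in the Tg(ORAI1)Ibd libraries, did not overlap between the groups, as 34.9% of all genes tested did not, and its log2 fold change was -0.88 ± 0.32 (SE, n = 3, edgeR adjusted p = 0.126). Gm10222 did not pass the filter on low counts. The remaining gene within 20 kb of the members, Tubb4b-ps2, a processed pseudogene of a tubulin, held 5 to 16 counts.

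**Figure D5:**
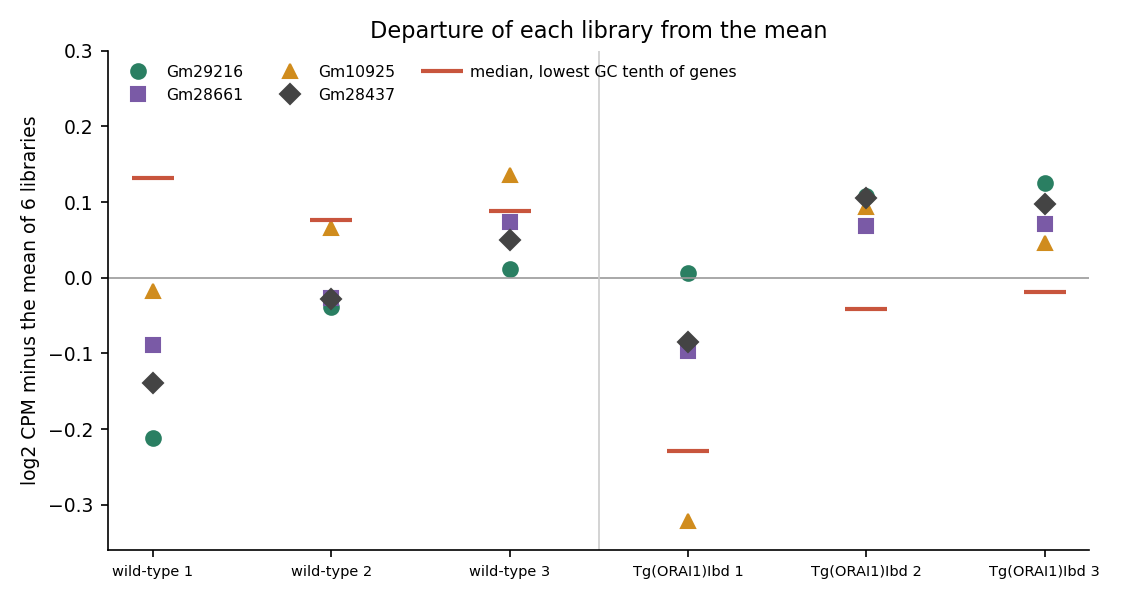
Log2 CPM of each member minus its mean over the 6 libraries, by library, with the median departure of the tenth of genes lowest in GC content as a red bar. All 4 members are above 0 in wild-type 3, Tg(ORAI1)Ibd 2 and Tg(ORAI1)Ibd 3, and Gm10925 is lowest in Tg(ORAI1)Ibd 1, where the bar is at -0.23.

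Across the 6 libraries the members did not all follow each other alike. As a description over 6 libraries that differ in depth, Pearson's r of log2 CPM was 0.96 between Gm28437 and Gm28661, 0.89 between Gm28437 and Gm29216 and 0.75 between Gm10925 and Gm28661, but 0.16 between Gm10925 and Gm29216.

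Of 10637 genes with a mean of at least 10 CPM, the 5 whose log2 CPM were most like the mean of the members were Pttg1ip (r = 0.997), Cldn11 (0.992), Mknk1 (0.989), Cx3cr1 (0.988) and Siglech (0.985). These genes, and the most unlike below, are the extremes of 10637 correlations over only 6 libraries. How many values this extreme would arise by chance was not tested, so no link to the members follows from them. Pttg1ip binds the securin PTTG1, Cldn11 is a claudin of myelin, Mknk1 is a kinase downstream of MAP kinases, and Cx3cr1 and Siglech are receptors of microglia. Cldn11 stood at 120.7, 145.0 and 185.9 CPM in the wild-type and at 114.5, 186.0 and 183.6 CPM in the Tg(ORAI1)Ibd libraries. The 5 most unlike were Gnptg (r = -0.991), Ppa2 (-0.986), Ccdc184 (-0.985), Chd5 (-0.985) and Vps8 (-0.983). Ppa2 is an inorganic pyrophosphatase of mitochondria and Chd5 a chromatin remodeler of neurons. Chd5 had 308.9, 277.6 and 250.3 CPM in the wild-type and 312.8, 257.3 and 252.8 CPM in the Tg(ORAI1)Ibd libraries. Cell composition was not tested as a part of the spread of the members, and in bulk tissue fewer cells of a type cannot be told from less RNA per cell.

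The nuclear genes for the same enzymes are given for comparison, from lists of names, and their counts are to be read against the 7.10% of all genes tested that were called and the 27.8% with an unadjusted p under 0.05. Of 15 nuclear-encoded subunits of complex IV, whose catalytic core mt-Co1, mt-Co2 and mt-Co3 encode, 1 was called higher in Tg(ORAI1)Ibd and none lower, 6 had an unadjusted p under 0.05, and the median log2 fold change was 0.10 against -0.010 over all genes tested. The gene called was Cox4i1, a regulatory subunit, with 300.6 ± 11.5 CPM in the wild-type and 348.2 ± 9.08 CPM in the Tg(ORAI1)Ibd libraries (SD, n = 3), a log2 fold change of 0.21 ± 0.048 (SE) and an adjusted p of 0.044 by edgeR.

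Of 17 nuclear genes for subunits of ATP synthase, to which mt-Atp6 contributes, and its inhibitor, 2 were called higher and none lower (7.10% of all genes were called) and 7 had an unadjusted p under 0.05 (27.8% of all genes), with a median of 0.10. The 2 genes called were Atp5e, the epsilon subunit, with 55.2 ± 2.20 CPM and 65.8 ± 3.21 CPM (SD, n = 3; log2 fold change 0.25, edgeR adjusted p = 0.040), and Atpif1, an inhibitor of its ATP hydrolysis, with 99.3 ± 0.651 CPM and 115.3 ± 1.86 CPM (log2 fold change 0.22, edgeR adjusted p = 0.027). None of the 37 nuclear-encoded subunits of complex I was called, 12 had an unadjusted p under 0.05 (27.8% of all genes did), and their median was 0.11. After removal of the GC trend no gene of the 3 lists was called, against 2.10% of all genes in that fit, and the medians were 0.11 for complex IV, 0.12 for ATP synthase and 0.076 for complex I.

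Genes that maintain and transcribe mitochondrial DNA, such as its polymerases and Tfam, held no call among 17 (7.10% of all genes were called), with 4 at an unadjusted p under 0.05 (27.8% of all genes) and a median log2 fold change of 0.036. Among 21 genes that process or stabilize mitochondrial RNA, 2 were called higher and none lower (7.10% of all genes were called), 7 had an unadjusted p under 0.05 (27.8% of all genes), and the median was -0.042. Fastkd5, which acts in the cutting of mitochondrial precursor RNA, had 3.31 ± 0.0661 CPM in the wild-type and 4.61 ± 0.343 CPM in the Tg(ORAI1)Ibd libraries (SD, n = 3; log2 fold change 0.48, edgeR adjusted p = 0.048). Slirp, which together with Lrpprc stabilizes mitochondrial mRNAs, had 26.3 ± 0.458 CPM and 31.1 ± 1.07 CPM (log2 fold change 0.24, edgeR adjusted p = 0.039). With the GC trend removed 1 of the 21 was called, higher, against 2.10% of all genes.

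Markers that differed between the genotypes were present beside these values. All 15 choroid plexus markers were called lower in Tg(ORAI1)Ibd, among them Slc4a5, a bicarbonate transporter, with 26.5 ± 5.94 CPM and 2.04 ± 0.432 CPM, and Ttr, the carrier of thyroxine, with 3144 ± 974 CPM and 287.4 ± 102.7 CPM (SD, n = 3). Their median log2 fold change was -2.57. Of the 10 neuronal markers only Slc17a7, a vesicular glutamate transporter, was called, with 1178 ± 19.2 CPM and 1407 ± 48.5 CPM (log2 fold change 0.26, edgeR adjusted p = 0.036), against 7.10% of all genes. With the GC trend removed none of the 10 neuronal and all 15 choroid plexus markers were called, against 2.10% of all genes. The part of choroid plexus tissue in the levels of the 4 pseudogenes was not tested.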

How the data were processed

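The authors trimmed reads with Trimmomatic, aligned them to mm10 with STAR and deposited raw counts per gene made by featureCounts 1.5.0-p1 (reversely stranded, mapping quality of at least 3, primary alignments, Ensembl 95), with each gene's exonic length. The labels call the run paired-end and give a read length of 1 × 76 bp. All 6 columns were used, and groups came from the labels.

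Genes were filtered by filterByExpr (minimum count 10), scaled by TMM and compared with edgeR 4.0.16 (quasi-likelihood test, R 4.3.3), with Benjamini-Hochberg adjustment over 19087 genes and a threshold of 0.05. FPKM were computed from the counts, the exonic length in kilobases and the library total. GC and length trends were removed as loess offsets (span 0.5). DESeq2 1.42.0 and limma 3.58.1 served as alternatives. The fits were also run on simulated counts, with the same spread for all genes and no GC or length trend. That run cannot show how the fits behave under the trends in these data. Replicate numbers name separate mice in each genotype, with nothing in the labels that ties equal numbers together.

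Sequences, names and positions came from GENCODE M21 transcripts (GRCm38), in which 54809 genes were found. Mitochondrial matches were sought in mitochondrial transcripts, not in the whole mitochondrial genome as planned, with blastn 2.17.0 (at least 100 bases, 80% identity). The named genes were the members, the neighbours within 20 kb with at least 10 counts in a library, the 5 highest other mitochondrial-like genes, up to 2 called genes each way of each list, the 5 genes most and least like the members, and Orai1 and Thy1 as a check of the labels. Fth1 was named outside this rule, after its values were seen. Members and lists were chosen with earlier results of these data known. With 3 mice per genotype, p-values measure the spread between these mice.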

Additional observations from a re-analysis of the deposited data

How the results depend on the processing

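Over 72 alternative fits of the 4 genotype differences none was called, with adjusted p between 0.082 and 0.994, and 67 kept the direction. The 5 that turned it were the removal of the GC trend for Gm10925 (log2 fold change 0.16 without and 0.16 with the replicate block), the removal of the length trend for Gm28437 (-0.0015) and Gm28661 (-0.060), and the fit without Tg(ORAI1)Ibd mouse 1 for Gm10925 (0.0073). Leaving out single mice gave -0.17 to 0.0073 on the log2 scale for Gm10925, 0.045 to 0.14 for Gm28437, 0.0062 to 0.083 for Gm28661 and 0.11 to 0.21 for Gm29216.

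The number of genes called, 1355, became 2230 by DESeq2's Wald test, 738 with the replicate block, 401 with the GC trend removed, 466 with the GC trend removed and the block, and 771 with the length trend removed. It ran from 77 to 1149 with single mice left out, the lowest being 77 without wild-type 1, 94 without wild-type 2, 192 without Tg(ORAI1)Ibd 2 and 108 without Tg(ORAI1)Ibd 3. Without wild-type 3 it was 1031 and without Tg(ORAI1)Ibd 1 it was 1149. The cause of these changes was not tested. Same-numbered mice correlated at -0.36 to 0.40 in their deviations from the group means. Pairs with different numbers ran from -0.59 (wild-type 3 with Tg(ORAI1)Ibd 1) to 0.54 (wild-type 3 with Tg(ORAI1)Ibd 2). Deviations from a mean of 3 mice depend on each other, so these values cannot decide whether the numbers pair the mice. With lengths less 75 bases the members' mean FPKM became 18443 for Gm10925, 16790 for Gm29216, 14457 for Gm28661 and 12922 for Gm28437, in the same order.

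The reads were not used here, so the share of mitochondrial reads in these counts is unknown. Counting error was small for the members. The intervals of their genotype differences rested on 3 mice per genotype, and the estimates also moved with the removal of a GC or length trend.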
